A study of Mus musculus with 10 samples.

Results

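The tumours of the mouse prostate cancer line CP2 were compared with those of the line P1. Both lines were grown as orthografts, that is, tumours that form after cells are injected into the organ they came from. The comparison took every tumour whose tissue label names CP2 or P1 cells, which gave 4 CP2 tumours and 3 P1 tumours, 7 of the 10 tumours of the series. The other 3 came from a further line, CP1, whose donor was 6 months old. CP2 replicate 1 carries a title that names CP1, but its tissue and source labels name CP2 and it was kept with CP2. The P1 line was raised from the prostate tumour of a donor mouse of 14 months. The CP2 line came from a donor of 8 months that carried an allele of Ctnnb1, the gene of beta-catenin, without exon 3 (Ctnnb1pc(ex3)Δ/+ in the labels, which do not spell out "pc" or name the driver of the recombination). The genotypes of both donors differ in more than this deletion. For each graft the cells were placed in 1 anterior prostate lobe of a male CD-1 Nude mouse, a strain without a normal thymus that keeps B cells, NK cells and macrophages. Each line is 1 line from 1 donor tumour, so line, genotype and donor age change together and cannot be told apart. No label says which animal a library came from, so the spread behind the p-values is that between these samples and may be technical. The RNA is that of whole tumours, host cells included, and fewer cells of a type cannot be told apart from less RNA per cell.

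In the canonical Wnt pathway, secreted Wnt proteins bind Frizzled receptors with the co-receptors Lrp5 and Lrp6 and stop a destruction complex, built on Axin, from marking beta-catenin for degradation. The segment encoded by exon 3 of Ctnnb1 holds the residues that this complex phosphorylates, so a protein without it is stable, enters the nucleus and activates genes together with the DNA-binding factors Tcf7, Lef1, Tcf7l1 and Tcf7l2. Many of the activated genes encode inhibitors of the pathway and are read as its feedback response. Beta-catenin also has a structural role at the cell membrane, where it links the epithelial adhesion protein E-cadherin, encoded by Cdh1, to the cytoskeleton.

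Values are CPM, the count of a gene scaled to a common library total, on library sizes scaled by the trimmed mean of M values (TMM), a factor that corrects for a few very abundant transcripts. They are not divided by transcript length, and levels are compared for a gene between tumours only. Values stand in the order of replicates 1 to 3 for P1 and 1 to 4 for CP2. Log2 fold changes are CP2 minus P1 and are printed as value ± standard error (SE), so that a negative value is a fall, and adjusted p-values come from edgeR's quasi-likelihood test with Benjamini-Hochberg adjustment over all genes tested. A gene was called at an adjusted p below 0.05. "Groups apart" below means that the highest tumour of one line lay under the lowest of the other, which held for 60.1% of all genes (30.5% higher and 29.7% lower in CP2).

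Totals per library ran from 28050484 to 37180721 counts in P1 and from 18800912 to 20638085 in CP2, so that 3 counts equal 0.0923 to 0.109 CPM in a P1 library and 0.137 to 0.154 CPM in a CP2 library. Correlations of log2 CPM across genes averaged 0.991 to 0.992 among CP2 tumours and 0.977 to 0.979 among P1 tumours. CP2 replicate 1 correlated at 0.991 with the other CP2 tumours and at 0.931 with CP1. The P1 tumours differed from each other in transcripts of the seminal vesicle, the gland next to the injected lobe. The list of these and other secretory products took 15%, 6.87% and 2.02% of the counts in P1 and 0.151%, 0.00586%, 0.0015% and 0.169% in CP2. P1 replicates 1 and 2 hold most of them, and counts of called genes that move by over 1.5 times and by 2 genes or more without both are given so. Hoxb13, a transcription factor that marks the prostate lineage, was measured at 38.9, 39 and 72.2 CPM in P1 and at 56, 52.5, 48.1 and 44.5 CPM in CP2, with no call (adjusted p = 0.974). It was called higher without P1 replicate 3 (0.36) and lower without P1 replicates 1 and 2 (-0.55).

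Of 17644 genes tested, 4987 (28.3%) were higher and 5014 (28.4%) were lower in CP2. The median log2 fold change of all genes was 0.002 and the median of its absolute value was 0.586. A test against a 2-fold change passed 1423 genes (8.07%) higher and 2093 (11.9%) lower. A call alone therefore says little about a list of genes here, and the counts below are read against these shares. Ctnnb1 itself (ENSMUSG00000006932, GRCm38 chromosome 9, 120929216 to 120960507) stood at 1796, 1951 and 1900 CPM in P1 and at 1041, 1043, 936 and 1010 CPM in CP2, with the groups apart. It fell by 0.90 on the log2 scale (SE 0.11, adjusted p = 9.80e-05). A count over the whole gene does not check the deletion of an exon.

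**Figure D1:**
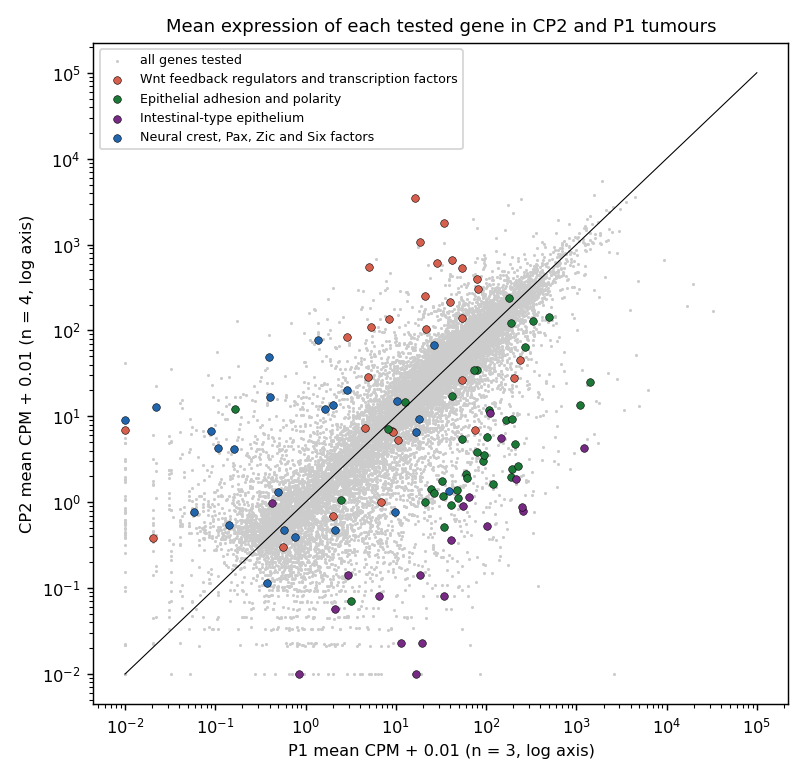
Mean CPM of each of the 17644 genes tested, P1 (n = 3) on the x axis and CP2 (n = 4) on the y axis, both with 0.01 CPM added and on log axes, with 4 gene lists in colour and the line of equality. Most Wnt feedback genes and neural crest factors lie above the line, and most adhesion and intestinal-type genes lie below it.

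Most feedback regulators and transcription factors of the Wnt pathway were higher in CP2. Of 32 genes in the list, 30 could be tested, 19 of them were higher (63.3%, against 28.3% of all genes) and 6 lower, and their median log2 fold change was 2.37. Past 2-fold, 18 were higher and 4 lower. Together these transcripts took 0.129%, 0.105% and 0.0833% of the counts in P1 and 1.17%, 1.10%, 1.08% and 1.13% in CP2. The CP1 tumours, whose donor also carried the exon 3 allele, held 0.233%, 0.277% and 0.188%. Tested against CP1, 18 of the 30 were higher in CP2 and 2 lower, where 21.3% and 21.9% of all genes were called.

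Only Sp5 of the 20 feedback genes with a promoter sequence has the letters CTTTGAT, the core bound by Tcf/Lef factors, or their reverse complement ATCAAAG, in the window from 250 bases before to 50 after its start. Over all 27025 genes with such a window 4.29% hold it, and 3.24% of those tested. The 250 bases before the start of Sp5 are shown because this gene had a high fold change and a match, which is in capitals (RefSeq, GRCm38.p6, chr2:70474673-70474922, plus strand).
Sp5: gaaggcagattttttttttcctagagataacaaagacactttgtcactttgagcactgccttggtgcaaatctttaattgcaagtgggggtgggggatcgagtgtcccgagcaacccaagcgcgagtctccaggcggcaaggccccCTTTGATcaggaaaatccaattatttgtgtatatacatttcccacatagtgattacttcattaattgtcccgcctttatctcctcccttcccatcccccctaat
A match is a description of letters, and binding was not measured here.

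Inhibitors that act inside the cell or on the Wnt protein showed wide gaps. Axin2, the Axin of the feedback loop (ENSMUSG00000000142, GRCm38 chromosome 11, 108920349 to 108950783), stood at 31.9, 35.4 and 18.6 CPM in P1 and at 649, 636, 570.5 and 583 CPM in CP2 (log2 fold change 4.41 ± 0.22, adjusted p = 5.55e-07). Nkd1, which binds Dishevelled and dampens the signal, stood at 49.6, 29.9 and 22.6 CPM in P1 against 1800, 1912, 1727 and 1774 CPM in CP2 (5.73 ± 0.37, adjusted p = 1.68e-06). Notum, a secreted enzyme that strips the lipid from Wnt proteins, rose from 6.12, 4.49 and 4.34 to 679, 533, 505 and 455 CPM (6.76 ± 0.39, adjusted p = 9.59e-07). In all 3 genes the lowest CP2 tumour lay far above the highest P1 tumour. Apcdd1, a membrane inhibitor of the pathway, went from 28.9, 8.6 and 11.5 CPM to 4029, 3193, 3311 and 3497 CPM, the widest change of the list among genes with more than 3 counts in both groups (7.75 ± 0.52, adjusted p = 2.27e-06). P1 replicate 1 was the highest P1 tumour for Apcdd1. Sp5, a transcription factor whose gene beta-catenin activates, was at 2.83, 3.96 and 1.9 CPM in P1 and at 85.8, 92.8, 76.6 and 78.8 CPM in CP2 (4.84 ± 0.38, adjusted p = 5.28e-06). Notumos, an antisense transcript over Notum, also rose, but without knowledge of strand in the counting its reads cannot be told apart from those of Notum.

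The secreted and receptor-level parts of the list moved in both directions. Sfrp2, a secreted Wnt-binding protein, rose from 25.4, 16.7 and 13.1 to 929.7, 1097, 1175 and 1107 CPM (5.87 ± 0.34, adjusted p = 9.15e-07), while its relative Sfrp1 fell from 363, 222 and 126 to 45.3, 32.8, 43.1 and 57.6 CPM (-2.41 ± 0.31, adjusted p = 0.000124). Frzb, of the same family, fell too (-3.44 ± 0.40, adjusted p = 6.06e-05). Wif1, Dkk2 and Dkk3, further secreted inhibitors, rose with log2 fold changes of 3.98 ± 0.79, 3.28 ± 0.31 and 2.42 ± 0.28. Among the receptors for R-spondins, which keep Frizzled at the surface, Lgr6 rose from 8.19, 4.36 and 3.25 to 101, 114, 109.8 and 109 CPM (4.36 ± 0.41) and Lgr4 fell from 199, 232 and 177 to 35.3, 29.4, 27 and 20.7 CPM (-2.85 ± 0.20, adjusted p = 2.72e-06). Lgr5 was not called (-0.51 ± 0.29, adjusted p = 0.158), except lower without P1 replicate 3. Of the R-spondins, Rspo4 had 0 counts in the P1 tumours and was at least 214-fold higher in CP2, at 5.5, 7.55, 8.71 and 6 CPM, taking 3 counts over the P1 group as the floor for this and the other bounds. Rspo3 fell from 10.1, 7.63 and 2.7 to 1.85, 0.441, 0.593 and 1.12 CPM (-2.77 ± 0.53, adjusted p = 0.00136). Of the DNA-binding partners, Tcf7 and Lef1 rose (3.59 ± 0.24 and 2.56 ± 0.14) and Tcf7l2 fell (-1.03 ± 0.15, adjusted p = 0.000248). The call of Rspo3 was lost without P1 replicates 1 and 2 (adjusted p = 0.0815).

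**Figure D2:**
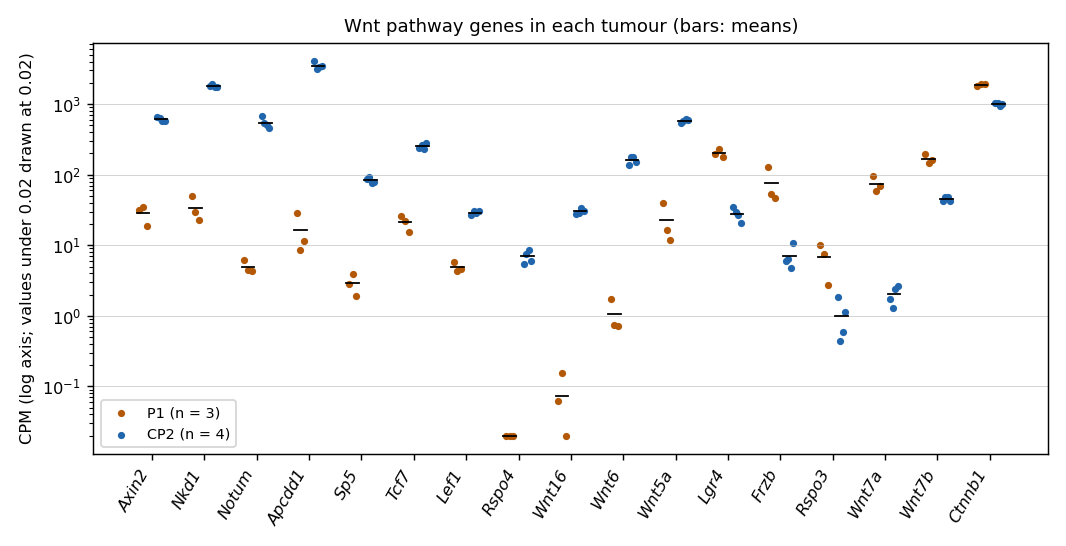
CPM of Wnt pathway genes in each of the 3 P1 and 4 CP2 tumours on a log axis, with bars for the group means (values under 0.02 drawn at 0.02). Axin2, Nkd1, Notum, Apcdd1, Sp5, Tcf7, Lef1, Rspo4, Wnt16, Wnt6 and Wnt5a lie higher in every CP2 tumour, and Lgr4, Frzb, Rspo3, Wnt7a, Wnt7b and Ctnnb1 lie lower.

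Most Wnt ligands were higher in CP2, and a few were lower. Of 15 tested, 9 were higher and 4 lower in CP2, with a median of 2.198. Wnt6 stood at 1.75, 0.748 and 0.729 CPM in P1 and at 137, 176, 175 and 153 CPM in CP2 (7.20 ± 0.42, adjusted p = 9.79e-07). Wnt10a, Wnt4 and Wnt2 rose with log2 fold changes of 2.87 ± 0.25, 2.90 ± 0.24 and 2.75 ± 0.23. Wnt16 stood at 0.0616, 0.156 and 0 CPM in P1, at or near 3 counts a library, and at 27.5, 28.5, 33.8 and 30.6 CPM in CP2 (8.55 ± 0.44, adjusted p = 6.02e-07). Wnt5a, mostly known for signalling that does not need beta-catenin, rose from 39.3, 16.4 and 11.9 to 531, 583, 624 and 599 CPM (4.70 ± 0.40, adjusted p = 9.31e-06). In the other direction, Wnt7a fell from 94.7, 58.5 and 69.6 to 1.75, 1.27, 2.42 and 2.6 CPM (-5.20 ± 0.32, adjusted p = 1.28e-06) and Wnt7b from 197, 146 and 164 to 42.7, 48.7, 48 and 42.1 CPM (-1.90 ± 0.20, adjusted p = 3.27e-05). No tumour of one line reached the range of the other for any of these genes. Against CP1, Wnt16 and Wnt6 were higher in CP2 (9.16 ± 0.46 and 2.43 ± 0.32), and Wnt5a was lower (-0.99 ± 0.33, adjusted p = 0.0336).

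The Frizzled receptors and co-receptors were more often lower than higher. Of 16 tested, 4 were higher and 7 lower (25.0% and 43.8%, against 28.3% and 28.4% of all genes). Fzd1 fell from 294, 209 and 165 to 88.8, 71.6, 65.8 and 69.9 CPM (-1.59 ± 0.18, adjusted p = 6.01e-05), and Fzd3 and Fzd5 fell as well (-3.37 ± 0.40 and -1.92 ± 0.16). Fzd10, at 2.03, 2.37 and 1.31 CPM in P1 and 6.16, 8.29, 6.97 and 5.07 CPM in CP2, had the largest rise of the 16 (1.79 ± 0.40, adjusted p = 0.00369). The co-receptors went opposite ways by small amounts, with Lrp6 at 0.37 ± 0.11 and Lrp5 at -0.78 ± 0.16.

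A second list of genes known as beta-catenin targets in other tissues was split. Of 23 tested, 9 were higher and 10 lower, with a median of -0.012. Msx2 and Twist1, transcription factors of mesenchymal and cranial development, rose by 5.79 ± 0.67 and 4.29 ± 0.16, and Tnfrsf19, a receptor of the TNF family, by 3.52 ± 0.34. Ccnd1, which encodes cyclin D1, stood at 349, 472 and 444 CPM in P1 and at 1152, 1060, 1153 and 929 CPM in CP2 (1.35 ± 0.15, adjusted p = 4.28e-05). The members named that fell follow. Ephb2, an ephrin receptor, fell from 48, 42.1 and 33.7 to 2.72, 2.55, 1.69 and 5.12 CPM (-3.77 ± 0.33, adjusted p = 9.45e-06), Ephb3 (-2.03 ± 0.15), Ascl2 (-4.33 ± 0.35) and Mmp7 (-1.55 ± 0.20). Cd44, at 632, 746 and 720.0 CPM in P1 and 769, 764, 775 and 678 CPM in CP2, was not called (adjusted p = 0.629).

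Transcription factors of the neural crest and of head and limb patterning were mostly higher in CP2. From a list of 37 such factors (Pax, Zic, Eya, Dlx, Tfap2 and others) 24 could be tested, 15 were higher and 6 lower, with a median of 2.38. Pax3, a regulator of neural crest and muscle precursors, had 1 count over the P1 tumours and stood at 13.9, 12.4, 12.7 and 12.5 CPM in CP2, a ratio of 1181 (95% interval 211 to 46670). Dlx3 went from 0.616, 0.156 and 0.365 to 48.1, 57, 45.4 and 46.6 CPM (7.00 ± 0.33, adjusted p = 4.08e-07). These groups did not overlap. The neighbouring genes Zic2 and Zic5 rose together (5.42 ± 0.55 and 6.37 ± 0.45), and both were higher than in CP1 as well (9.96 ± 0.80 and 8.66 ± 0.57). Six4 and its cofactor Eya1 rose by 2.82 ± 0.28 and 2.88 ± 0.31. Eya2, a relative of Eya1, fell from 36.6, 42.7 and 37.1 to 1.8, 0.589, 1.46 and 1.49 CPM (-4.86 ± 0.29, adjusted p = 1.13e-06). Pax8 and Pax9 fell too (-3.67 ± 0.86 and -1.37 ± 0.23). Sox10, the marker of the migrating neural crest and its glia, was at most 0.511 CPM in the 7 tumours. It was called lower in CP2 (-1.72 ± 0.61, adjusted p = 0.0345), on 33 counts over the P1 tumours and 9 over the CP2 tumours.

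Genes named among the 20 largest rises over all genes were at or near 0 CPM in P1. Slitrk1, a synaptic adhesion protein, had 0 counts in the P1 tumours and was at least 1297-fold higher in CP2, at 49.3, 32.1, 51.4 and 36.3 CPM. Kcnmb2, a subunit of a potassium channel, also had 0 counts in P1 and was at least 285-fold higher, at 7.14, 7.55, 11.4 and 10.7 CPM. Hrh3, a histamine receptor, had 1 count over P1 and 24.4, 27.5, 18.3 and 19.9 CPM in CP2, a ratio of 2060 (95% interval 369 to 81400). These transcripts were at or under the limit of detection in P1 and present in every CP2 tumour, a pattern that a ranking by fold change favours. Unc5d, a netrin receptor, and Gad1, the enzyme that makes GABA, had 2 or 3 counts over P1, with ratios of 380.3 (95% interval 129.8 to 1847) and 271 (95% interval 74.7 to 2245). Evx1, a homeobox factor of the posterior embryo, rose from 0.246, 0 and 0.0729 to 27.3, 30.1, 26.3 and 28.5 CPM (7.96 ± 0.91, adjusted p = 5.31e-05), and Foxd1, a forkhead factor of kidney stroma, had a ratio of 551 (95% interval 98.5 to 21810). Rbfox1, a splicing factor, was at 0.0308, 0.0312 and 0.182 CPM in P1 and 13.7, 20.7, 28.1 and 29.2 CPM in CP2 (8.13 ± 0.66). The wider list of axon guidance and synapse adhesion genes was split, with 19 of 48 higher and 17 lower. Sema3a and Robo2 rose from 6.09, 2.74 and 2.59 to 371, 259, 306 and 253 CPM and from 2.09, 1.06 and 0.912 to 117, 112, 129 and 131 CPM (6.28 ± 0.41 and 6.48 ± 0.32), while Sema3e and Sema4a fell (-5.94 ± 0.81 and -3.50 ± 0.14).

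**Figure D3:**
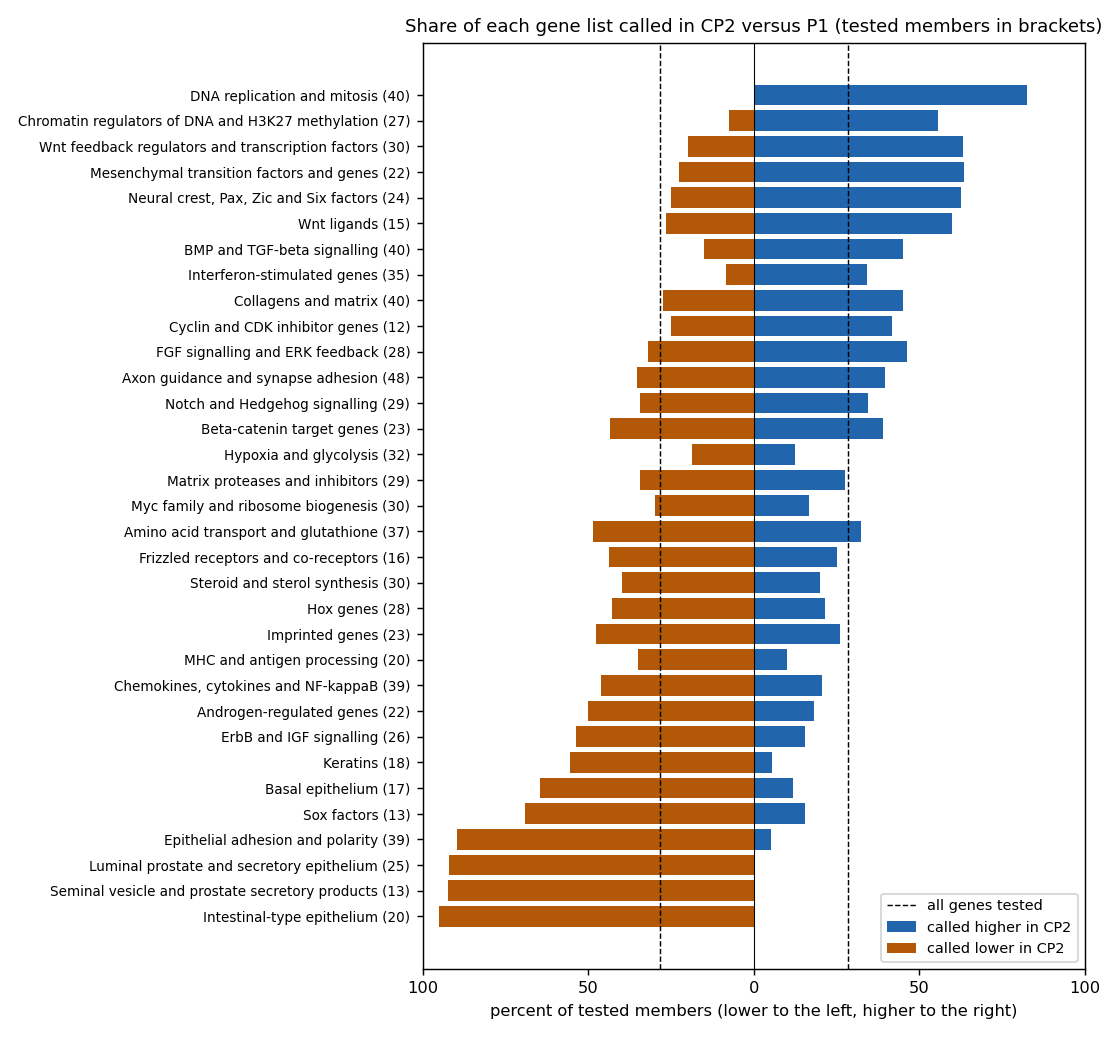
Share of each gene list that was called higher (to the right) and lower (to the left) in CP2 than in P1, in percent of the members tested, beside the same for all 17644 genes (28.3% and 28.4%). The lists of DNA replication, chromatin regulators, Wnt feedback and mesenchymal genes lie on the side of higher calls, and the luminal, secretory, intestinal-type and adhesion lists on that of lower calls.

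Luminal prostate genes, which mark the secretory cells that line the gland, were low in CP2. Of 25 tested, 23 were lower (92.0%, against 28.4% of all genes), none was higher, and the median log2 fold change was -4.53. Their share of the counts was 1.96%, 2.72% and 2.93% in P1 and 0.234%, 0.166%, 0.114% and 0.177% in CP2. Without P1 replicates 1 and 2, 21 were lower. Krt8, a keratin of simple epithelia, stood at 2907, 4234 and 6517 CPM in P1 and at 118, 39.6, 22.1 and 26.6 CPM in CP2 (-6.47 ± 0.76, adjusted p = 6.65e-05). Its partner Krt18 stood at 1498, 2024 and 3277 CPM against 68.6, 24.1, 15.4 and 19.6 CPM (-6.15 ± 0.57, adjusted p = 1.40e-05). CP2 replicate 1 was the highest CP2 tumour for both keratins and lay far under the lowest P1 tumour. Prom1, which encodes CD133, stood at 1435, 2071 and 1673 CPM in P1 and at 8.94, 1.52, 1.78 and 7.25 CPM in CP2 (-8.47 ± 0.67), and Psca, a surface antigen of prostate epithelium, at 28.8, 38.7 and 83 CPM against 0.103, 0.0981, 0.137 and 0.0465 CPM (-8.96 ± 1.21). The epithelial transcription factors Elf3, Ehf and Spdef fell (-6.61 ± 0.50, -4.72 ± 0.24 and -5.43 ± 0.83). Hoxb13, given above, was 1 of the 2 genes without a call. Foxa1, a further luminal regulator, fell by a smaller amount (-0.62 ± 0.18, adjusted p = 0.0136), a call lost without P1 replicates 1 and 2.

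Junction and polarity genes of epithelia were lower almost throughout. Of 39 tested, 35 were lower and 2 higher, with a median of -4.38. Their transcripts took 0.532%, 0.643% and 0.657% of the counts in P1 and 0.102%, 0.104%, 0.0941% and 0.0953% in CP2. Cdh1 stood at 1302, 1387 and 1548 CPM in P1 and at 35.5, 26, 16.8 and 21.9 CPM in CP2 (-5.82 ± 0.45, adjusted p = 5.19e-06). Epcam, an epithelial adhesion molecule, stood at 861, 1164 and 1281 CPM against 16, 14.4, 8.43 and 14.8 CPM (-6.36 ± 0.33, adjusted p = 6.03e-07). The tight junction genes Tjp3, Cgn, Lsr and Cldn7 fell (-6.59 ± 0.50, -6.19 ± 0.46, -6.32 ± 0.32 and -5.47 ± 0.37), and the polarity genes Crb3 and Pard6b (-5.43 ± 0.20 and -5.48 ± 0.37). Desmosomal genes spanned a wide range, from Dsg2, at 224, 272 and 174 CPM in P1 and 2.77, 3.48, 2.33 and 1.86 CPM in CP2 (-6.42 ± 0.61), to Dsp (-1.35 ± 0.11) and Pkp2 (-1.18 ± 0.10). Jup, which encodes plakoglobin, a relative of beta-catenin, fell (-1.77 ± 0.14). Esrp1 and Esrp2, splicing regulators of epithelial cells, fell (-4.82 ± 0.47 and -5.03 ± 0.56). The pair called higher were Tjp1 (0.43 ± 0.15, adjusted p = 0.035), whose call was lost without P1 replicate 2 or 3 or any 1 CP2 tumour, and Grhl3, a factor of surface epithelium that stood at 0.0923, 0.187 and 0.182 CPM in P1 and at 12.3, 13.9, 11.6 and 11.2 CPM in CP2 (6.28 ± 0.91, adjusted p = 0.000247). Its relatives went other ways, since Grhl2 fell (-4.14 ± 0.56) and Grhl1 was not called (0.20 ± 0.30, adjusted p = 0.592).

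The E-box CAGGTG (reverse complement CACCTG) is the sequence that Snai and Zeb repressors bind. Of 23 adhesion genes with a promoter sequence, 16 (69.6%) hold it in the window from 250 bases before to 50 after the start, against 21.7% of tested genes. The share was 33.4% of genes more than 2-fold lower in CP2 (496 of 1487) and 22.7% of those more than 2-fold higher (224 of 988). The 250 bases before the start of Epcam, Lsr and Cldn7, which fell, and of Grhl3, which rose, are printed to show that the letters stand in promoters of genes of both directions. Capitals mark the E-box on either strand, all sequences are from RefSeq (GRCm38.p6), and no overlap with the motif CTTTGAT occurs in them. Epcam lies at chr17:87635729-87635978 (plus strand), Lsr at chr7:30973470-30973719 (minus strand), Cldn7 at chr11:69965171-69965420 (plus strand) and Grhl3 at chr4:135573633-135573882 (minus strand).
Epcam: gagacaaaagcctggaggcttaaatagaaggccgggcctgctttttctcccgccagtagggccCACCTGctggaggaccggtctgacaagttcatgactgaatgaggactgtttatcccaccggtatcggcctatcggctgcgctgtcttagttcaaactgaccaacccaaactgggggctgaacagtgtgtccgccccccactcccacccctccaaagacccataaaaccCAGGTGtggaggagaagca
Lsr: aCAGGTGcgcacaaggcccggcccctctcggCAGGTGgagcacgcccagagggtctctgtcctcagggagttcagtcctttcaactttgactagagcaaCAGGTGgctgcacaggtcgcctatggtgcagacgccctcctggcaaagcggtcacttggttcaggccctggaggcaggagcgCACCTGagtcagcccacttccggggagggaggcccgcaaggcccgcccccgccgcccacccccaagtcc
Cldn7: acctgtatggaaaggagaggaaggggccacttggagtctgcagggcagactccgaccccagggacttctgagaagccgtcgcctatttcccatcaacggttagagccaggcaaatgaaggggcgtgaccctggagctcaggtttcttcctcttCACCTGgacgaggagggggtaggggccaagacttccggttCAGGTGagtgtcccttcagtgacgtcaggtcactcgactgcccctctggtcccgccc
Grhl3: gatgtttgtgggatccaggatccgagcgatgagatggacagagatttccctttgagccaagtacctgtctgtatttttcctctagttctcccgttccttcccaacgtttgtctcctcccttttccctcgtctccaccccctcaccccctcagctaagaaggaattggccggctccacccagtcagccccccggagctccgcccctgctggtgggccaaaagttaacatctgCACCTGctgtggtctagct
Epcam and Cldn7 hold 2 matches each, Lsr holds 4 and Grhl3 holds 1. Neither binding nor methylation at these windows was measured.

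**Figure D4:**
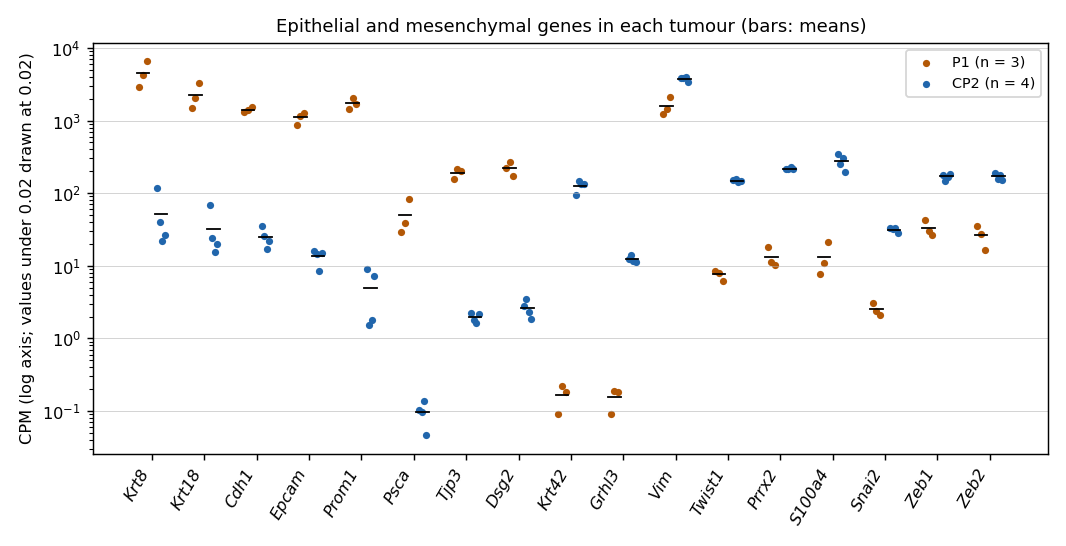
CPM of epithelial and mesenchymal genes in each of the 3 P1 and 4 CP2 tumours on a log axis, with bars for the group means (values under 0.02 drawn at 0.02). From Krt8 to Dsg2 every CP2 tumour lies under every P1 tumour, and from Krt42 to Zeb2 every CP2 tumour lies above.

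Keratins were lower in 10 of 18 tested and higher in 1 (3 without CP2 replicate 1). Krt7, of simple epithelia, fell from 1097, 1126 and 1750 to 10.1, 3.38, 2.69 and 5.77 CPM (-7.92 ± 0.89), and Krt20, of intestine and urothelium, from 134, 248 and 353 to 5.6, 0.687, 1.09 and 0.605 CPM (-6.96 ± 0.86). Krt42, a type I keratin described in nail and hair epithelium, was the exception and rose from 0.0923, 0.218 and 0.182 to 93.2, 148, 134 and 134 CPM (9.56 ± 0.31, adjusted p = 1.48e-07). It was higher than in CP1 by 10.49 ± 0.34. The basal keratin Krt5 was at 28.7, 10.5 and 9.88 CPM in P1 and 8.47, 27.4, 26.3 and 20 CPM in CP2, with overlapping groups and no call (adjusted p = 0.742). Of the basal list 11 of 17 were lower, among them the laminin genes Lamb3 and Lama3 (-3.81 ± 0.36 and -3.79 ± 0.38), and 2 were higher, Itga6 (0.62 ± 0.19) and Dst (0.62 ± 0.18), both of them without a call when P1 replicate 3 was left out. The call was also lost without P1 replicate 1 for Itga6 and without P1 replicate 2 for Dst.

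Genes of intestinal-type epithelium were measured in P1 and were near 0 in CP2. Of 20 tested, 19 were lower in CP2, none was higher and the median was -6.98. Their share of the counts was 0.16%, 0.292% and 0.289% in P1 and 0.00425%, 0.00321%, 0.00255% and 0.00207% in CP2. Hnf4a, a regulator of gut and liver epithelium, stood at 241, 259.5 and 261 CPM in P1 and at 1.39, 0.441, 1.19 and 0.14 CPM in CP2 (-8.33 ± 0.93, adjusted p = 4.80e-05). Cdx2, the intestinal homeobox factor, stood at 13, 22.1 and 21 CPM against 0.257, 0.049, 0.137 and 0.093 CPM (-7.09 ± 0.39), and Vil1, which encodes villin of the brush border, at 208, 282 and 269 CPM against 1.23, 1.57, 0.456 and 0.233 CPM (-8.19 ± 0.46). P1 and CP2 were far apart for each of them. The gene not called was Isx, at most 1.32 CPM in the 7 tumours. Genes named among the 20 largest falls over all genes were at or near 0 CPM in CP2, which a ranking by fold change favours. The antimicrobial lectins Reg3b, Reg3g and their relative Reg1 fell (-9.52 ± 0.85, -9.61 ± 0.83 and -9.90 ± 0.58), Duox2, which makes hydrogen peroxide at the mucosal surface, (-9.44 ± 0.52), and Gpx2, the epithelial glutathione peroxidase, from 185, 352 and 584 to 0, 0.343, 0.0456 and 0 CPM (-11.86 ± 1.13). Kif12, Ptprh and Sult1b1 had 0 counts in CP2 and were at least 2353-fold lower, at least 531-fold lower and at least 189.5-fold lower. Chil4, a chitinase-like protein, also had 0 counts in CP2 (at least 66460-fold lower), but P1 replicate 3 held most of it, with 173, 457 and 7291 CPM in the P1 tumours.

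Seminal vesicle and prostate secretory products were lower in 12 of 13 tested, with a median of -7.62, and this fall rests in part on P1 replicates 1 and 2. Without both, 9 of 15 tested were lower. Pate4 was at 6352, 7669 and 754 CPM in P1 and at 14, 0.196, 0.274 and 38.7 CPM in CP2 (-8.53 ± 1.65, adjusted p = 0.0015). Svs4 was at 48190, 4361 and 6607 CPM in P1 and 693, 11.1, 1.78 and 699 CPM in CP2 (-5.81 ± 1.80, adjusted p = 0.0194, and 0.0685 without P1 replicate 1). CP2 replicates 1 and 4 held far more of both than CP2 replicates 2 and 3. Pbsn, the probasin of the androgen-responsive prostate, followed another order, with 388, 119 and 1393 CPM in P1 and 0.668, 12, 2.92 and 0.0465 CPM in CP2 (-7.34 ± 2.18, adjusted p = 0.0158).

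Other genes regulated by androgen were more often lower, with 11 of 22 lower and 4 higher. Steap4, a metalloreductase, went from 162, 188 and 176 to 3.75, 2.84, 7.43 and 3.02 CPM (-5.36 ± 0.41), and Tmprss2, a surface protease, from 279, 424 and 449 to 31.5, 37.6, 28.9 and 23.7 CPM (-3.66 ± 0.57, adjusted p = 0.000413). Fkbp5 and Tsc22d3, which also answer to glucocorticoids, were higher in CP2, at 312, 151, 150.2 and 122 and 353, 88.4, 137 and 65.6 CPM against 75.7, 80.2 and 51.8 and 29.8, 34.4 and 50.3 CPM in P1 (1.41 ± 0.34 and 2.08 ± 0.57). CP2 replicate 1 was the highest tumour for both, and the call of Tsc22d3 was lost without P1 replicates 1 and 2. Enzymes that make or inactivate androgens were low in CP2. Srd5a2 fell from 6.5, 7.79 and 5.18 to 0.103, 0.049, 0.0912 and 0.14 CPM (-6.01 ± 0.48) and Hsd17b2 from 17.3, 24 and 28.3 to 0.257, 0.049, 0.182 and 0.0465 CPM (-7.40 ± 0.78), and Srd5a1 (-1.47 ± 0.38). In the wider list of steroid and sterol synthesis 6 of 30 were higher and 12 lower (7 lower without P1 replicates 1 and 2), and the fatty acid genes Scd1, Acaca and Fasn were among the higher ones (1.56 ± 0.24, 1.46 ± 0.13 and 0.81 ± 0.18).

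Genes of mesenchymal cells were mostly higher in CP2. Of 22 tested, 14 were higher and 5 lower (3 lower without P1 replicates 1 and 2), with a median of 1.49. Twist1 stood at 8.59, 8.04 and 6.16 CPM in P1 and at 151, 156, 141 and 146 CPM in CP2 (adjusted p = 1.51e-07), and it was also higher than in CP1 (5.60 ± 0.17). Prrx2, a homeobox factor of mesenchyme, rose from 18.2, 11.2 and 10.3 to 214, 215, 226 and 215 CPM (4.04 ± 0.20). The E-box repressors Snai2, Zeb2 and Zeb1 rose by 3.65 ± 0.36, 2.69 ± 0.22 and 2.36 ± 0.17, and Snai1 by 1.68 ± 0.27. Each of these 6 factors was higher in every CP2 tumour than in any P1 tumour. Vim, the filament protein of mesenchymal cells, was at 1240, 1445 and 2074 CPM in P1 and 3869, 3890, 3928 and 3421 CPM in CP2 (1.25 ± 0.18, adjusted p = 0.000223). Cdh2, which encodes N-cadherin, rose by 2.87 ± 0.16, and S100a4, a calcium-binding protein also known as fibroblast-specific protein, by 4.39 ± 0.38. Fn1, Acta2 and Cdh11 fell (-1.05 ± 0.25, -2.07 ± 0.48 and -1.18 ± 0.24), the last pair only with P1 replicates 1 and 2 in the fit. The fibroblast markers did not move as a block, with 5 of 14 higher and 8 lower (5 and 2 without P1 replicates 1 and 2) and a share of 0.515% to 0.878% of the counts in P1 and 0.865% to 1.07% in CP2. Their part in the rise of mesenchymal genes was not tested.

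Collagen and matrix genes were more often higher than lower in CP2. Their share of lower calls, 27.5%, was near the 28.4% of all genes, and their share of higher calls was above the 28.3% of all genes. Of 40 collagen and matrix genes 18 were higher and 11 lower (17 and 4 without P1 replicates 1 and 2). The collagen VI genes rose, Col6a1 from 294, 226 and 221 to 3695, 3252, 3295 and 3348 CPM (3.78 ± 0.16) and Col6a2 from 222, 178 and 191 to 2370, 2219, 2258 and 2431 CPM (3.56 ± 0.14). Hapln1, a hyaluronan link protein, rose from near 0 to 5.44, 6.03, 8.48 and 4.6 CPM. Spp1, which encodes osteopontin, fell from 5242, 4398 and 4653 to 394, 424, 331 and 363 CPM (-3.66 ± 0.31). Among 29 proteases and inhibitors 8 were higher and 10 lower (27.6% and 34.5%, near the 28.3% and 28.4% of all genes). Mmp9 rose from 17.3, 11.8 and 24.2 to 598, 923, 918 and 1318 CPM (5.72 ± 0.42), and the stromelysins Mmp3 and Mmp10 rose by 5.30 ± 0.47 and 5.50 ± 0.55. Mmp15, a membrane-bound protease, fell from 133, 166 and 238 to 9.71, 19.3, 13.8 and 12.2 CPM (-3.70 ± 0.33). For each of these 8 genes the groups were apart.

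Of the BMP and TGF-beta genes 18 of 40 were higher and 6 lower. Bmp2 stood at 11.4, 6.7 and 7.51 CPM in P1 and at 497, 482, 469 and 443 CPM in CP2 (5.79 ± 0.21, adjusted p = 1.51e-07), and Bmp5 had 2 counts over P1 and 32.8, 42.6, 34.5 and 31.2 CPM in CP2. Antagonists rose beside these ligands, Grem1 from 2.06, 0.561 and 0.693 to 66, 74.7, 83.6 and 88.2 CPM (6.12 ± 0.51), Nog by 3.47 ± 0.34 and Bambi, a pseudoreceptor, by 4.01 ± 0.27. Id3, which BMP signalling activates, rose by 2.53 ± 0.28, and Id1, activated in the same way, was not called (0.00 ± 0.20). Bmpr1b, a receptor, fell (-4.33 ± 0.55).

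The FGF list had 13 of 28 higher and 9 lower, and the parts differed by role. Of 7 FGF genes tested, 5 fell, Fgf13, of the intracellular FGFs, from 21.7, 17.2 and 27.5 to 0.0514, 0, 0.228 and 0.14 CPM (-7.62 ± 0.56), and the secreted Fgf2, Fgf7, Fgf9 and Fgf10 (-1.72 ± 0.28, -2.53 ± 0.51, -2.58 ± 0.44 and -2.42 ± 0.57). Fgf1 and Fgf18 were not called, and the call of Fgf10 was lost without P1 replicates 1 and 2. Of the receptors, Fgfr1 rose (2.14 ± 0.25) and Fgfr4 fell from 74.2, 102 and 101 to 0.308, 0.0981, 0.319 and 0 CPM (-8.96 ± 0.41). Most genes that ERK signalling induces as feedback were higher, Etv4 from 17.3, 10.7 and 12.8 to 95.6, 89.1, 107 and 88.3 CPM (2.80 ± 0.17), Dusp4 by 2.97 ± 0.36, Etv5 by 1.42 ± 0.19, Spry4 by 1.84 ± 0.15 and Spry1 by 1.84 ± 0.23. Spry2 and Dusp5 were not called. Dusp6, of the same kind, was not called (-0.40 ± 0.17, adjusted p = 0.0688), but it was called lower without P1 replicate 1 and by DESeq2 (adjusted p = 0.0432).

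ErbB and IGF genes were lower in 14 of 26 and higher in 4. Erbb3 fell from 138, 167 and 98.2 to 5.96, 3.19, 4.56 and 4.65 CPM (-4.87 ± 0.49) and Igfbp5, an IGF-binding protein, from 552, 422 and 422 to 18.9, 30.1, 22.1 and 30.8 CPM (-4.19 ± 0.40), while Irs1, an adaptor of the insulin and IGF receptors, rose from 11.1, 4.14 and 1.71 to 57.5, 48.9, 48 and 44.5 CPM (3.12 ± 0.49). In the Notch and Hedgehog list 10 of 29 were higher and 10 lower (34.5% each, against 28.3% and 28.4% of all genes). The Notch ligands Dll1 and Jag2 fell (-3.50 ± 0.18 and -2.13 ± 0.25), as did the Notch targets Hes1, Hey1 and Nrarp (-1.27 ± 0.13, -1.76 ± 0.40 and -1.89 ± 0.28), whereas Hey2 rose (3.41 ± 0.34). On the Hedgehog side, the transcription factors Gli3 and Gli2 rose (3.70 ± 0.25 and 2.48 ± 0.33) and Hhip, a ligand-binding inhibitor, rose from 1.66, 0.717 and 0.547 to 32.1, 36.5, 62.7 and 38.9 CPM (5.43 ± 0.60). Gli1, the usual readout of Hedgehog activity, was not called (-0.38 ± 0.31, adjusted p = 0.327), and the ligand Ihh fell (-3.08 ± 0.48).

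Replication and mitosis genes were higher in CP2 by small amounts. Of 40 tested, 33 were higher (82.5%), none was lower and the median was 0.83, and 7 passed the 2-fold test. Their share of the counts was 0.143%, 0.157% and 0.204% in P1 and 0.285%, 0.308%, 0.372% and 0.359% in CP2. Without P1 replicates 1 and 2, 20 were higher and 1 lower, and P1 replicate 3 was the P1 tumour with the highest share. E2f1, which drives S phase genes, stood at 16.2, 17.3 and 24.6 CPM in P1 and at 53.1, 64.6, 69.7 and 67.7 CPM in CP2 (1.72 ± 0.16). Foxm1, which drives mitotic genes, was at 37.8, 35 and 38.8 CPM against 105, 102, 130.2 and 120.5 CPM (1.62 ± 0.10), and Mki67, the proliferation marker, at 92.7, 81.5 and 98.8 CPM against 143, 158, 209 and 192 CPM (0.95 ± 0.14). All CP2 tumours lay above the P1 tumours for these 3. Cdkn2a, whose products restrain the cell cycle, fell from 27.1, 15.1 and 30.7 to 0.616, 0.539, 0.365 and 0.465 CPM (-5.61 ± 0.29, adjusted p = 6.02e-07), and its neighbour Cdkn2b from 58.2, 42.1 and 61.9 to 21.9, 17.9, 18.3 and 15.7 CPM (-1.55 ± 0.26).

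The Myc family genes fell. Myc stood at 86.4, 86.6 and 116 CPM in P1 and at 42.4, 45.3, 43 and 40 CPM in CP2 (-1.18 ± 0.12, adjusted p = 3.28e-05). Mycn stood at 39.4, 39.6 and 45.8 CPM against 1.7, 2.31, 2.05 and 1.91 CPM (-4.38 ± 0.21, adjusted p = 4.24e-07), and Mycl fell (-1.98 ± 0.59). With the ribosome biogenesis genes, 5 of 30 were higher and 9 lower, mostly by less than 2-fold. Chromatin regulators were higher in 15 of 27 and lower in 2, again by little, with Ezh2 at 0.58 ± 0.09 and Suz12 at 1.05 ± 0.09. The exceptions in size were Hmga2, an architectural chromatin protein of embryonic cells, which rose from 5.42, 6.7 and 7.11 to 135, 102, 119 and 86 CPM (4.11 ± 0.22), and Igf2bp2, an RNA-binding protein, which rose from 9.3, 5.33 and 5.83 to 52.4, 50.8, 49.7 and 40.5 CPM (2.82 ± 0.21). Both were also higher than in CP1 (3.18 ± 0.21 and 2.57 ± 0.21).

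Amino acid transport and glutathione genes were called more often than not, with 12 of 37 higher and 18 lower. The cystine transporter Slc7a11 rose from 4.59, 3.9 and 4.23 to 196, 196, 186 and 174 CPM (5.47 ± 0.26, adjusted p = 4.07e-07), with its partner chain Slc3a2 (1.45 ± 0.12) and the neutral amino acid transporter Slc7a8 (4.12 ± 0.21). The enzymes that make glutathione from cystine-derived cysteine went the other way, with Gclm at -2.28 ± 0.10, Gclc at -1.58 ± 0.29 and Gss at -2.13 ± 0.15. The conjugating enzymes Gsta3, Gsta4 and Gsto1 fell as well (-7.94 ± 0.86, -5.75 ± 0.88 and -3.04 ± 0.25). Of 32 hypoxia and glycolysis genes 4 were higher (2 without P1 replicates 1 and 2) and 6 lower, a smaller share than over all genes. Car9, a carbonic anhydrase that hypoxia induces, fell from 143, 244 and 223 to 12, 6.38, 5.51 and 7.12 CPM (-4.72 ± 0.40), while Pkm and Ldha were not called (adjusted p = 0.835 and 0.937).

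Marker lists of host and other cells were measured beside these groups, and 28.3% of all genes were called higher and 28.4% lower. The neutrophil list, with 30.0% of tested members lower, was close to the share of all genes. The macrophage list, with 7.14% lower and none higher, was under it. Macrophage markers had 1 of 14 called, Cd14 (lower, -2.44 ± 0.14), and took 0.138% to 0.178% of the counts in P1 and 0.121% to 0.183% in CP2. Endothelial markers took 0.029% to 0.0485% and 0.0403% to 0.0532%, with 6 of 14 lower (3 without P1 replicates 1 and 2). Only Flt1, which encodes a VEGF receptor, rose, from 44.9, 19.1 and 26.7 to 196.5, 237, 195 and 172.6 CPM (2.73 ± 0.28). Flt1 held the most counts of this list in CP2, and every other member had a lower mean there than in P1. The overlap of the endothelial shares therefore does not show that the content of these cells was unchanged. Smooth muscle markers were lower in 7 of 11 and higher in 2. Without P1 replicate 1, in which they took 0.282% of the counts against 0.107% to 0.146% in the other P1 tumours, 4 were lower and 4 higher, and without P1 replicates 1 and 2 only 1 was lower. B and plasma cell markers were lower in 5 of 7, or in 3 without P1 replicates 1 and 2 (0.00208% to 0.0117% of counts in P1, 0.00033% to 0.000672% in CP2). Urothelial markers were lower in 3 of 7 and neutrophil markers in 3 of 10, or in 1 without P1 replicate 3 or without CP2 replicate 2 and in 5 by DESeq2. Most counts of the neutrophil list in P1 were those of Ltf, which encodes lactoferrin, also a product of secretory epithelia, at 472, 715 and 288 CPM in P1 and 29.5, 8.48, 0.456 and 86.4 CPM in CP2. Of 8 neuroendocrine markers 2 were higher, among them Syp, a synaptic vesicle protein (3.96 ± 0.44), and 3 lower, among them Chga (-4.67 ± 0.69), and the list took at most 0.00637% of the counts in any of the 7 tumours. Nerve and Schwann cell markers were lower in 4 of 9 (2 without P1 replicate 3, without CP2 replicate 4 or with the 7 tumours alone) and higher in 1, and skeletal muscle markers lower in 1 of 6 and higher in 2. Adipocyte markers took 0.0181% of the counts in CP2 replicate 3 and 0.0026% to 0.00287% in the other CP2 tumours, with no member of the list higher and 1 of 7 lower (4 lower without CP2 replicate 3). None of the 5 red blood cell genes tested was called. The part of these cells in the gene groups above was not tested.

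**Figure D5:**
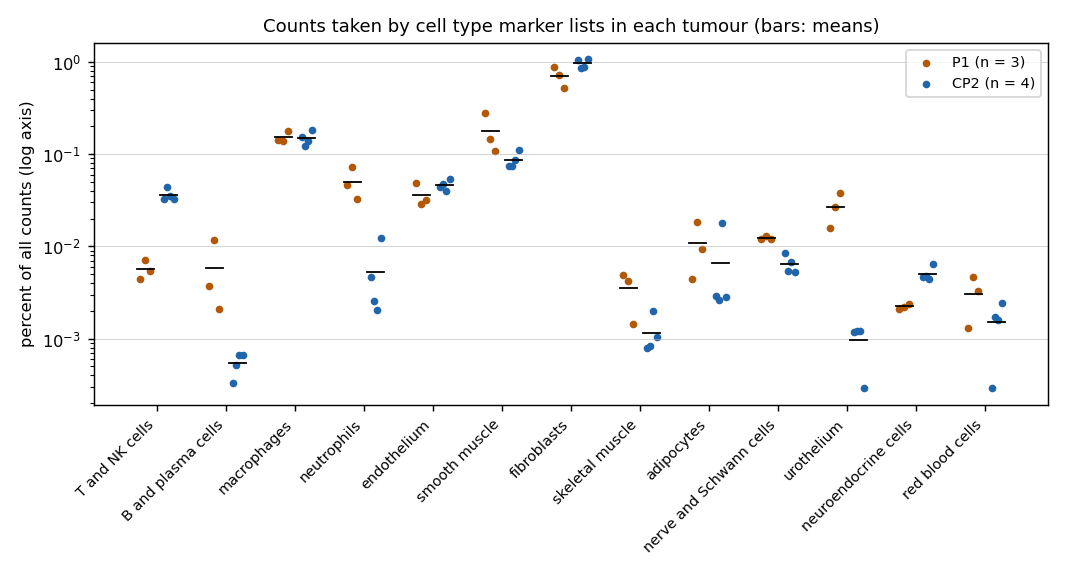
Percent of all counts taken by each marker list in each of the 3 P1 and 4 CP2 tumours, on a log axis, with bars for the group means. Macrophage and endothelial lists overlap between the lines, the endothelial list with Flt1, which was higher in CP2, included. The T and NK cell and the neuroendocrine lists are higher in every CP2 tumour. The B cell, urothelium, neutrophil, and nerve and Schwann cell lists are lower in every CP2 tumour, the neutrophil list with Ltf included.

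Of 15 T and NK cell markers tested, 6 were higher and 4 lower in CP2 (2 lower without P1 replicate 2 and none without P1 replicates 1 and 2). The T and NK cell markers took 0.00448%, 0.00713% and 0.00541% of the counts in P1 and 0.0325%, 0.044%, 0.0355% and 0.0324% in CP2, and most of this came from a pair of genes. Prf1, which encodes perforin, rose from 7.76, 9.35 and 11.7 to 159, 221, 169 and 153 CPM (4.19 ± 0.32, adjusted p = 4.89e-06), and Gzmb, which encodes granzyme B, from 15.9, 22.6 and 18.8 to 69.9, 115, 86.2 and 89.6 CPM (2.24 ± 0.32, adjusted p = 0.000239). Both were far higher than in CP1 (7.24 ± 0.39 and 6.81 ± 0.43). Il2rb, Eomes and Klrd1, further genes of NK and activated T cells, rose by 2.17 ± 0.24, 2.46 ± 0.27 and 1.69 ± 0.35. Genes of T cells went both ways. Cd3g rose by 1.85 ± 0.48, and Cd2, Cd8a and Trac fell (-3.06 ± 0.65, -2.26 ± 0.64 and -0.88 ± 0.33). The NK cell receptor gene Ncr1 was not called (0.97 ± 0.40, adjusted p = 0.061, and 0.0239 by DESeq2), and Nkg7, a granule protein of the same cells, was at 1.57, 3.65 and 2.41 CPM in P1 and 3.03, 4.56, 4.51 and 4.09 CPM in CP2 without a call (adjusted p = 0.0706, and 0.0162 without P1 replicate 2). Gzma, the other common granzyme, fell from 3.51, 5.89 and 2.48 to 0.411, 0.687, 1.78 and 0.372 CPM (-2.27 ± 0.56), a call lost without P1 replicates 1 and 2. Gzma lies on chromosome 13 and Gzmb on chromosome 14. How the counting treated reads that map to several granzyme genes is not given.

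Interferon-stimulated genes depended on the P1 tumours used. Of 35 tested, 12 were higher and 3 lower, with 19 and 1 when P1 replicate 2 was left out, 7 and 6 when P1 replicate 3 was left out, and 1 lower without P1 replicates 1 and 2 or without CP2 replicate 1. P1 replicate 2 held 0.223% of its counts in this list and the other P1 tumours 0.0899% and 0.101%. Ifit2 stood at 13.6, 23.3 and 6.09 CPM in P1 and at 48.9, 86.7, 73.6 and 81.3 CPM in CP2 (2.34 ± 0.40, adjusted p = 0.000696), and Ddx58, which encodes the RNA sensor RIG-I, at 40.3, 46.1 and 28.3 CPM against 102, 140.5, 123 and 124 CPM (1.67 ± 0.18). CP2 replicate 1 was the lowest CP2 tumour for both and still above P1. Gbp2 was called lower (-1.58 ± 0.60, adjusted p = 0.0458) with overlapping groups, lost its call without P1 replicate 2 or any 1 CP2 tumour, and turned direction without P1 replicates 1 and 2, at 0.35. Compared with CP1, 24 of the 35 were higher in CP2 and none lower. Of 20 MHC and antigen processing genes 2 were higher, 7 lower and 11 not called (4 and 4 called without P1 replicates 1 and 2). The class II genes Cd74, H2-Ab1 and H2-Eb1 fell, with Cd74 at 541, 746 and 541 CPM in P1 and 65.8, 44.6, 97.1 and 91.5 CPM in CP2 (-3.03 ± 0.45, -2.51 ± 0.39 and -2.32 ± 0.47), while the class I genes H2-K1 and H2-D1 were higher by 0.62 ± 0.19 and 0.71 ± 0.17. The groups overlapped for H2-K1, whose call was lost without P1 replicate 1 or 3, and that of H2-D1 was lost without P1 replicates 1 and 2. Without P1 replicate 2, 4 of the 20 were higher. Among 39 chemokine, cytokine and NF-kappaB genes 8 were higher and 18 lower. Il33, an alarmin of epithelial nuclei, fell from 245, 384 and 385 to 35.4, 22.9, 37.5 and 39.3 CPM (-3.32 ± 0.24), Icam1, an adhesion receptor for leukocytes, (-3.12 ± 0.18) and the neutrophil chemokine Cxcl5 (-3.79 ± 0.32). Cxcl15 rose from 0.492, 0.125 and 0.219 to 26.7, 20.3, 15.2 and 14.4 CPM (6.06 ± 0.87), and Nfkb2 from 105, 99.7 and 117 to 255, 379, 395 and 359 CPM (1.70 ± 0.24).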

How the data were processed

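RNA-seq libraries of 10 whole tumours were given as whole-number counts per Ensembl gene, 1 file per tumour, as deposited by the authors. The submitters' processing notes name the build GRCm38.p3, HTSeq 0.6.0, DESeq2 1.14.1 under R 3.2.3, the aligners TopHat2 2.1.0 and Bowtie2 2.2.6.0, and FastQC 0.11.4. The annotation, the counting parameters and whether strand was used are not given in the sources used here. Reads that map to several genes could therefore be lost or split among close copies.

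Counts were analysed in R 4.3.3. Of 47069 gene IDs per file, 46574 were named through GENCODE M21 (GRCm38), and 495 unmatched IDs stayed in the test without a name. Genes were kept at a minimum count of 10 in enough libraries and a total of 15 (edgeR's filter), libraries were scaled by TMM, and edgeR 4.0.16 (limma 3.58.1) fitted a quasi-likelihood model over all 10 tumours with 1 mean per line, which pools the spread over the 3 lines. CP2 minus P1 and CP2 minus CP1 were tested at an adjusted p of 0.05 (Benjamini-Hochberg), and a test against a 2-fold change was run beside. The procedure was also run on simulated data with 200 changed genes. Far more genes were called in the real data, so that run does not show how the procedure behaves at this extent of change. No library pair agreed within sampling noise (chi-square per gene of 11.5 or more), so no library was counted as a copy of another. A gene at 0 counts over a group was given a bound at 3 counts over that group. At 1 to 3 counts a ratio with an exact 95% interval was given. Bounds and intervals cover counting error only.

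The comparison, the gene lists and the cell type markers were chosen with earlier results of these data known. Genes were named by rule: Ctnnb1, Axin2, Myc, Wnt5a, Krt8, Krt18, Cdh1, Epcam and Vim in every case, the 20 largest called rises and falls whose mean reached 5 CPM in the higher line and whose groups did not overlap (not all are printed), and per list up to 3 called members in each direction and the highest member not called. Further members of the lists were named after their values were seen. Alternatives were RLE size factors, TMM without secretory genes, no filter, a fit of the 7 tumours alone, DESeq2 1.42.0, and leaving out each tumour or P1 replicates 1 and 2. Promoter sequences are RefSeq's, and a window was found for 27025 genes. Part of the genotypes and some genes are not reported here.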

Additional observations from a re-analysis of the deposited data

Results flagged for a closer look

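Among 254 genes examined in the 4 CP2 tumours, 15 had 1 tumour apart from the other 3 by Dixon's criterion (the gap to the nearest tumour over the whole range). Chance alone gives about 1 in 20, and the number flagged was close to that, so the flags are a description only. A flagged gap can be small, as for Ephb3, at 14.3 CPM in CP2 replicate 1 and 13.4 to 13.6 CPM in the other CP2 tumours. CP2 replicate 1, the tumour whose title names CP1, was the one apart in 7 of the 15 and the high one in 6 of them. It held the highest values of Krt18 (68.6 CPM), Krt20 (5.60 CPM), Grhl2 (2.06 CPM), Ephb3 (14.3 CPM), Sema3e (2.62 CPM) and Fkbp5 (312 CPM), and the lowest value of Gbp2 (34.2 CPM). For the keratins, Grhl2, Ephb3 and Sema3e this tumour still lay below every P1 tumour. CP2 replicate 2 was high for Pkm (2065 CPM) and Gpx2 (0.343 CPM). CP2 replicate 3 was high for Spry4 (42.9 CPM) and Prrx2 (226 CPM) and low for Eya1 (9.25 CPM). CP2 replicate 4 was low for Cd44 (678 CPM), Vim (3421 CPM) and Scd1 (276.7 CPM).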

How the results depend on the processing

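The count of genes higher in CP2 ran from 4339 to 4776 with 1 tumour left out at a time, and was 4812 with RLE size factors, 4731 with secretory genes left out of TMM, 4487 with no filter, 4748 with the 7 tumours alone, 4550 without P1 replicates 1 and 2 and 4966 by DESeq2. The count lower ran from 4473 to 5050 with 1 tumour left out and from 4646 to 5500 under the other settings. The count past 2-fold ran from 3145 to 3458 and from 2801 (DESeq2) to 3714. DESeq2 called 9802 of the 10001 genes, all in the same direction. Of 254 genes named in the text, 229 kept their side of the threshold under every alternative that gave a value. Those of them that were called also kept their direction. Hnf4a and Wif1 have no value by DESeq2, and Sox10 has none in the 7 tumours alone. A call was lost by 19 genes and gained by 6. Changes of sign were counted only for genes called in the main fit or in the alternative. The estimates of 2 such genes turned sign without P1 replicates 1 and 2, Gbp2 to 0.346 and Hoxb13 to -0.55. The cause was not tested. With P1 replicate 3 alone, P1 has 1 library and is assumed to vary like the other groups.

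No paired analysis was possible because the replicate numbers were given in accession order and pair no samples. Transcripts under 3 counts, 0.137 to 0.154 CPM in a CP2 library, could not be told from 0 at this depth. Each line stands for 1 donor tumour, and the spread between lines of 1 genotype is unknown.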

Other observations

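Hox genes, which encode position along the body axis, moved in both directions. Of 39 Hox genes 28 could be tested, 6 were higher and 12 lower in CP2. Hoxa13, the last gene of the A cluster and active in the urogenital region, stood at 12.5, 5.89 and 7.08 CPM in P1 and at 77.6, 83.6, 71.9 and 67.6 CPM in CP2 (3.14 ± 0.26, adjusted p = 7.75e-06). Hoxa10, of the same cluster, at 72.2, 72.2 and 74.6 CPM in P1 and 78.5, 77.8, 76.3 and 72.9 CPM in CP2, was not called (adjusted p = 0.461). In the D cluster Hoxd8, Hoxd9 and Hoxd13 fell (-3.32 ± 0.36, -2.55 ± 0.44 and -2.85 ± 0.75), and in the B cluster Hoxb6, Hoxb7 and Hoxb8 fell (-1.43 ± 0.15, -1.90 ± 0.17 and -2.12 ± 0.16) while Hoxb9 rose (0.68 ± 0.16), a call lost without P1 replicates 1 and 2. Sox factors were mostly lower, with 9 of 13 tested lower and 2 higher. Sox6, a factor of cartilage and muscle development, fell from 8.8, 12.3 and 9.12 to 0.103, 0.294, 0.319 and 0.186 CPM (-5.44 ± 0.37), and Sox12 rose (1.74 ± 0.15).

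Imprinted genes, of which 1 parental copy is active, were lower in 11 of 23 and higher in 6. H19, a non-coding RNA, stood at 3.85, 1.37 and 1.6 CPM in P1 and at 12.2, 19.5, 17.1 and 43.9 CPM in CP2 (3.34 ± 0.52, adjusted p = 0.000416), and CP2 replicate 4 was its highest tumour. Igf2, its neighbour, was at 5.48, 7.35 and 7.95 CPM in P1 and 8.17, 7.16, 6.47 and 6.09 CPM in CP2, with overlapping groups (adjusted p = 0.987). Phlda2 and Plagl1, growth restrainers, fell (-5.57 ± 0.73 and -3.52 ± 0.49), and Mest rose by 2.25 ± 0.45.

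Calls were not spread evenly over the chromosomes. On chromosome 18, 46.4% of 442 tested genes were called higher and 17.9% lower, with a median log2 fold change of 0.334. On chromosome 19 the shares were 42.6% and 19.1% (566 genes, median 0.282), and on chromosome 8 they were 41.7% and 19.3% (885 genes, median 0.281). On chromosome 7 they were 19.3% and 36.2% (1314 genes, median -0.181), and on chromosome 17 16.8% and 33.7% (840 genes, median -0.16).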
